A study of Mus musculus with 2 samples.

Results

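The 10 genes described here act on collagen after it is translated. They are the lysyl oxidases Lox, Loxl1, Loxl2 and Loxl3, the lysyl hydroxylases Plod1 and Plod2, the collagen prolyl 4-hydroxylase subunits P4ha1 and P4ha2, the collagen chaperone Serpinh1 and the procollagen C-proteinase enhancer Pcolce. They were taken by symbol from the 32285 genes of 1 single-cell count matrix of mouse skin, in which each symbol had 1 row. The skin came from C57BL/6 mice of 8 weeks and was digested with Liberase and DNase. In part of the animals neutrophils were depleted at steady state with the anti-Ly6G antibody clone 1A8 on 2 consecutive days, and the other skin was control. Cells of both conditions were tagged with hashtag antibodies and pooled into 1 RNA library, whose matrix had 0 hashtag rows and no condition in a barcode name. Control and neutrophil-depleted skin were therefore not compared, and every value describes the pool.

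Fibrillar collagen is built in steps. In the endoplasmic reticulum prolyl 4-hydroxylases make the hydroxyproline that keeps the triple helix folded at body temperature, lysyl hydroxylases mark lysines for later crosslinks, and HSP47, the product of Serpinh1, binds and stabilises the folded helix. Outside the cell the propeptides are cut off, a step that Pcolce speeds for the C-terminal one, and copper-dependent lysyl oxidases then convert lysines into aldehydes that form the crosslinks between collagen molecules. Skin dermis is a tissue rich in collagen I and III, and its fibroblasts are the main source of both.

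The matrix held 83725065 unique molecular identifiers (UMIs, each standing for 1 captured RNA molecule) in 8367 distinct barcodes. With at least 200 genes and at most 20% mitochondrial UMIs, 8127 barcodes remained, with 507 to 58199 UMIs each and a median of 9708. A barcode entered a class when at least 3 markers of 1 class had 2 or more UMIs each. This gave 3454 fibroblast-like and 3161 other gated barcodes, while 406 passed several gates and 1106 passed none, and these were kept apart. No member and no collagen was a marker. In fibroblast-like barcodes 6 of 6 fibroblast markers were detected, summing to 17631 counts per 1000000 UMIs (CPM), while keratinocyte markers summed to 86.8 CPM, macrophage markers to 15.6 CPM and monocyte markers to 2241 CPM. There was 1 library and no replicate, so no test across samples could be made. Brackets and bars give 95% intervals, exact Poisson for levels, exact conditional for ratios and Clopper-Pearson for shares, and cover counting error only. UMIs are not divided by gene length, so levels were compared between groups for 1 gene and not between genes.

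The upstream sequences of 3 members are shown because P4ha1 and Plod1 had UMIs in many classes while Serpinh1 had most of its UMIs in fibroblast-like barcodes, as the values after them show. Of the 10 members, 5 (Plod1, P4ha1, P4ha2, Serpinh1 and Pcolce) had an entry in the RefSeq promoter table of build GRCm38.p6. Each line gives the 250 bases before the gene's start, read in the direction of the gene, from chr10:59323046-59323295 (plus strand) for P4ha1, chr4:147936777-147937026 (minus strand) for Plod1 and chr7:99353240-99353489 (minus strand) for Serpinh1. Capitals mark matches on either strand to ACGTG, 1 form of the core of the hypoxia response element, or to GGGCGG, the GC box bound by Sp1. The other form of that core, GCGTG, was not searched.
P4ha1: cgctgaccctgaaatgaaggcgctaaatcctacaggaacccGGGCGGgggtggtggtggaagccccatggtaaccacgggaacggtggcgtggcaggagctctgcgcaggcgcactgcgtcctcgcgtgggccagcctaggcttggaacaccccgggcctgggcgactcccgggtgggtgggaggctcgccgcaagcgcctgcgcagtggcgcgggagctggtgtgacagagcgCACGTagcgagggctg
Plod1: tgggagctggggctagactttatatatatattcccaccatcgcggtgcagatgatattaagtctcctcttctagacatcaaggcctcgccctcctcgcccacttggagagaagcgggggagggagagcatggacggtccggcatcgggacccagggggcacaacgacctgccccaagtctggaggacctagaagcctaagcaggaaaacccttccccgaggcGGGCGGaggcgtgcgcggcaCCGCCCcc
Serpinh1: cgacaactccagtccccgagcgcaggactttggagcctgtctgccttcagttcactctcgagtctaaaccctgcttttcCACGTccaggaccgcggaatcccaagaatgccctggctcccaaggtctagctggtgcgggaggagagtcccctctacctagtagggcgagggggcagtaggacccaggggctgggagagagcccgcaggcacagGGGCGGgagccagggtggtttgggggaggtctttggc
The RefSeq starts of P4ha2 and Pcolce lie 829 and 2380 bases inside the gene as GENCODE gives it, so their windows are within the gene spans given here and are not printed. ACGTG had 1 match in each of P4ha1, P4ha2 and Serpinh1 and 0 in Plod1 and Pcolce. It occurred in 16.6% of all 32851 promoter windows of that length. GGGCGG had 1 match in P4ha1, Serpinh1 and Pcolce and 2 in Plod1 and P4ha2, and 32.7% of all windows held it. CCAAT, present in 33.8% of windows, and the heat shock pair GAANNTTC, present in 6.69%, were searched on both strands too and were found in none of the 5. TATAAA, present in 12.4% of windows, had 1 match, in Plod1.

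Fibroblast-like barcodes were compared with all other gated barcodes to ask where these enzymes are expressed in skin. At 2-fold or more, 9 of 10 members were higher in fibroblast-like barcodes, and the median log2 ratio of the 10 was 5.22. Of the 15019 genes with at least 50 UMIs over both sides, 19.6% were higher and 24.8% lower by that measure, and their median log2 ratio was -0.17. The collagens themselves, Col1a1, Col1a2 and Col3a1 together, had 12142 CPM (12109 to 12176) in fibroblast-like barcodes and 62.7 CPM (60.0 to 65.6) in the others.

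Serpinh1 (chr7:99345376-99353239, mm10), the chaperone, had 1192 CPM in fibroblast-like barcodes and 28.5 CPM in the others, a ratio of 41.9 (39.2 to 44.8). It was found in 98.6% of fibroblast-like barcodes, with a median of 12 UMIs each. The prolyl hydroxylase subunits differed from each other in how far they were confined to fibroblasts. P4ha1 (chr10:59323296-59373304) had 138 CPM in fibroblast-like barcodes and 68.8 CPM in the others, a ratio of 2.01 (1.91 to 2.11). P4ha2 (chr11:54100095-54131665), which encodes the other catalytic subunit measured, had 46.8 CPM in fibroblast-like barcodes and 4.36 CPM in the others, a ratio of 10.7 (9.04 to 12.9).

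The lysyl hydroxylases showed the same kind of split. Plod1 (chr4:147909753-147936767), which hydroxylates lysines of the helix, had 41.2 CPM in fibroblast-like barcodes and 20.9 CPM in the others, a ratio of 1.97 (1.80 to 2.16) and the 1 member below 2-fold. Plod2 (chr9:92542223-92608428), which hydroxylates the lysines of the telopeptides, the ends of the molecule outside the helix, had 77.5 CPM in fibroblast-like barcodes and 2.35 CPM in the others, a ratio of 32.9 (26.2 to 42.1). The intervals of P4ha1 and Plod1 both held 2, so that their places on either side of this threshold cannot be told apart.

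Pcolce (chr5:137605103-137613784) had 489 CPM in fibroblast-like barcodes and 8.20 CPM in the others, a ratio of 59.6 (52.7 to 67.7). Among the crosslinking enzymes, Lox had 154 CPM in fibroblast-like barcodes and 0.986 CPM in the others, a ratio of 156 (110 to 230). Loxl1 (chr9:58287738-58313186), known in mice for its part in elastic fibre upkeep, had 527 CPM in fibroblast-like barcodes and 3.62 CPM in the others, a ratio of 145 (121 to 176). Loxl2 (chr14:69609068-69695834), a lysyl oxidase with scavenger receptor domains, had 159 CPM in fibroblast-like barcodes and 1.18 CPM in the others, a ratio of 135 (98.2 to 193). Loxl3 (chr6:83034173-83052562), of the same structural group, had 53.2 CPM in fibroblast-like barcodes and 1.72 CPM in the others, a ratio of 31.0 (23.6 to 41.4). The ratios of Lox, Loxl1 and Loxl2 had overlapping intervals and were the highest of the 10, and that of Loxl3 lay below them.

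Taken against 1 class at a time, all 10 members were 2-fold higher in fibroblast-like barcodes than in keratinocyte-like (25.8% of all genes), dendritic-like (31.8%), lymphoid-like (24.8%) and skeletal muscle-like barcodes (46%). Over macrophage-like barcodes 8 of 10 were (28.4% of all genes), with Plod1 at 0.916-fold (0.823 to 1.02) and P4ha1 at 1.53-fold (1.42 to 1.65). Over monocyte-like barcodes 9 were (30.5%), all but Plod1, and over unsplit myeloid barcodes 9 (30.3%), all but P4ha1. In the smallest classes, where few UMIs bound the ratios, 7 were higher over neutrophil-like (12.3%), 5 over mast-like (9.71%) and 6 over pericyte or smooth muscle-like barcodes (12.5%).

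The share of barcodes in which a member was found follows its level and the depth, so it describes each gene by itself. Lox was found in 54.7% of fibroblast-like barcodes (median depth 11486.5 UMIs) and in 0.949% of the other gated barcodes (median depth 9498 UMIs). After every barcode was thinned to 1000 UMIs, which left out 5 fibroblast-like and 25 other barcodes below that depth, these shares were 13.7% in fibroblast-like barcodes and 0.0638% in the others. The highest single barcode held 38 Lox UMIs, while 1564 barcodes held none and the median was 1. Loxl1 was found in 92.8% and Pcolce in 91.8% of fibroblast-like barcodes, Plod1 in 34.6% and P4ha2 in 37.2%.

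**Figure D1:**
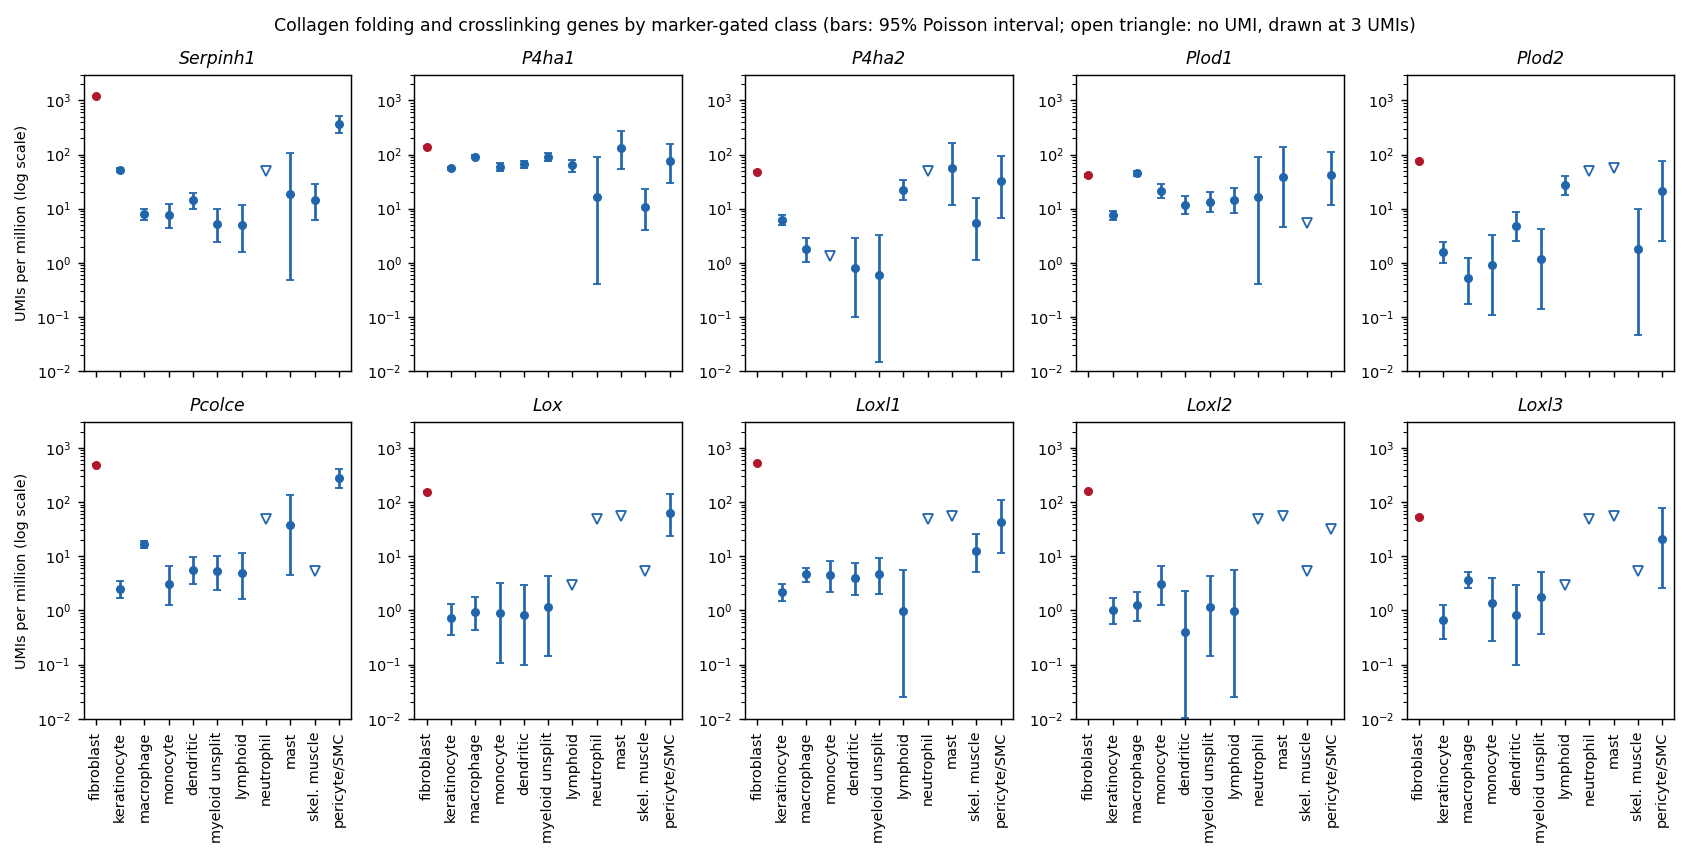
Level of each member (CPM, log scale) in the 11 marker-gated classes, with fibroblast-like barcodes at the left in red and the other classes in blue. Bars are 95% Poisson intervals, and an open triangle marks a class with no UMI, drawn at the level that 3 UMIs would give. P4ha1 stands between 10.8 and 138 CPM in every class, while Lox, Loxl1 and Loxl2 are highest in fibroblast-like barcodes, and Serpinh1 and Pcolce come nearest to them in pericyte or smooth muscle-like barcodes.

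The other genes of collagen biosynthesis were compared in the same way. Of the 38 listed, 37 had at least 50 UMIs over both sides. By 2-fold or more 26 were higher in fibroblast-like barcodes, against 19.6% of all genes, and 1 was lower, against 24.8%. The median log2 ratio of the 37 was 2.73, against -0.17 for all genes. In prolyl hydroxylation and isomerisation 7 of 8 were higher, among them P4ha3, a further catalytic subunit, at 13.9 CPM in fibroblast-like barcodes and 0.286 CPM in the others. P3h3, a prolyl 3-hydroxylase family member that works with lysyl hydroxylase, had 64.1 CPM in fibroblast-like and 2.32 CPM in the other barcodes. P3h1, the prolyl 3-hydroxylase of fibrillar collagen, had 26.6 CPM in fibroblast-like and 1.46 CPM in the other barcodes. The shared beta subunit of prolyl 4-hydroxylase, P4hb, which is also a general disulfide isomerase, was 2.15-fold higher (2.08 to 2.23).

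In the other groups of the list the counts varied with the step, beside 19.6% of all genes that were higher. All 4 genes of crosslinking and fibril assembly were higher in fibroblast-like barcodes, including the collagen-binding Sparc at 2872 CPM in fibroblast-like and 37.0 CPM in the other barcodes. Of 6 genes for folding in the endoplasmic reticulum and its control 5 were higher, led by the peptidyl-prolyl isomerases Fkbp14 (85.2-fold), Fkbp10 (50.3-fold) and Fkbp7 (26.8-fold). Of 7 genes of propeptide removal 5 were higher, led by the enhancer Pcolce2 (210-fold), the N-proteinase Adamts2 (126-fold) and the proteinase Tll1 (38.2-fold). In secretion and retrieval 4 of 5 were higher, led by the retrieval receptor Kdelr3 (51.6-fold), the coat protein Sec24d (6.65-fold) and Sec23a (3.03-fold). Loxl4 was 43.0-fold higher, while Fmod, a fibril-binding proteoglycan, had only 66 UMIs in fibroblast-like barcodes and 2 in the others.

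The lysine and cofactor groups stood nearer to the other cells, beside the same 19.6% of all genes higher and 24.8% lower. Of the lysine hydroxylation and glycosylation genes 1 of 3 was higher, the galactosyltransferase Colgalt2 (16.7-fold), while Plod3 was at 1.69-fold and Colgalt1 at 0.697-fold. None of the 4 copper and ascorbate supply genes with enough UMIs passed 2-fold in either direction. The highest of them was the ascorbate transporter Slc23a2 at 0.802-fold, followed by the copper transporter Slc31a1 at 0.736-fold and the Golgi copper pump Atp7a at 0.688-fold. P3h2, the prolyl 3-hydroxylase known for basement membrane collagen IV, was the 1 gene of the list below 0.5-fold, with 0.876 CPM in fibroblast-like and 77.4 CPM in the other barcodes. Its level was 151 CPM (144 to 157) in keratinocyte-like and 32.2 CPM (28.7 to 36.0) in macrophage-like barcodes.

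Outside fibroblasts the question was whether any other class carries a member above its neighbours, each class being set against the remaining non-fibroblast barcodes. Of the 10 members, 8 had at least 50 UMIs in that comparison, all but Lox and Loxl2. Collagen UMIs were found in these classes too, so the UMIs of a member that would come along with them were computed, taking the ratio of that member to Col1a1, Col1a2 and Col3a1 in fibroblast-like barcodes. In the 3161 barcodes together Lox had 31 UMIs against 25.0 expected in this way, a ratio of 1.24 (0.842 to 1.76). For Lox the interval held 1 in every class compared except the pericyte or smooth muscle-like one. P4ha1 stood 96.3 times (92.3 to 101) and Plod1 98.1 times (90.7 to 106) above that expectation.

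Macrophage-like barcodes (918) had 3 of 8 members at 2-fold or more, against 13.2% of all genes. Plod1 had 45.0 CPM (40.8 to 49.5) in macrophage-like barcodes and 10.4 CPM in the other non-fibroblast classes, a ratio of 4.31 (3.66 to 5.08). The enzyme's level there reached that of fibroblast-like barcodes, at 41.2 CPM (39.3 to 43.2), within counting error. The related Plod2 was at 0.526 CPM in macrophage-like barcodes, 5 UMIs in all, against 4.66 expected with collagen. Pcolce had 16.7 CPM in macrophage-like barcodes and 4.51 CPM in the other non-fibroblast classes, and 159 UMIs against 29.4 expected with collagen. Loxl3 had 3.68 CPM in macrophage-like barcodes and 0.866 CPM in the others, from 35 UMIs of which 1 barcode held 6. Collagen I and III were at 76.8 CPM and all fibroblast markers together at 99.4 CPM in macrophage-like barcodes. Serpinh1 had 76 UMIs there against 71.7 expected with collagen.

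Keratinocyte-like barcodes (1279) had 2 of 8 members at 2-fold or more, against 23.3% of all genes. Serpinh1 had 51.3 CPM (47.6 to 55.2) in keratinocyte-like barcodes and 10.7 CPM in the other non-fibroblast classes, and its 705 UMIs were 11.6 times (10.8 to 12.5) the number expected with collagen I and III. P4ha2 had 6.19 CPM in keratinocyte-like barcodes and 2.94 CPM in the other classes, and its 85 UMIs were 35.7 times (28.5 to 44.1) those expected with collagen. The leading collagens of these barcodes were Col17a1, a transmembrane collagen of hemidesmosomes, Col23a1 and Col4a6, and all collagens together reached 1420.0 CPM. Subsets were gated by their own markers. Serpinh1 was at 145 CPM (123 to 169) in lower follicle-like, 69.6 CPM (60.5 to 79.8) in basal-like and 4.89 CPM (2.90 to 7.73) in suprabasal-like barcodes. P4ha1 was at 77.6 CPM in lower follicle-like, 88.0 CPM in basal-like and 21.5 CPM in suprabasal-like barcodes. All collagens together had 2179 CPM in lower follicle-like, 1766 CPM in basal-like and 680.4 CPM in suprabasal-like barcodes, the same order as Serpinh1.

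Lymphoid-like barcodes (194) had 2 of 8 members at 2-fold or more, against 14.9% of all genes. Plod2 had 27.5 CPM (18.3 to 39.8) in lymphoid-like barcodes and 1.51 CPM in the other non-fibroblast classes, a ratio of 18.2 (10.9 to 29.7). P4ha2 had 22.6 CPM (14.3 to 33.9) in lymphoid-like barcodes and 3.75 CPM in the other classes, a ratio of 6.03 (3.68 to 9.50). These rest on 28 UMIs in 23 barcodes and on 23 UMIs in 20 barcodes, with at most 3 UMIs in a barcode. Lox and Loxl3 had 0 UMIs there, which allows up to 2.95 CPM at 3 counts. A split by T cell receptor genes, chosen after these values were seen, placed most P4ha2 UMIs in 1 group of barcodes and spread those of Plod2 over several. Of the 23 P4ha2 UMIs, 21 lay in the 77 barcodes with a UMI of Trdc, the constant gene of the delta chain, at 52.1 CPM (32.2 to 79.6). Of the 28 Plod2 UMIs, 15 lay in the 56 barcodes without Trdc, Cd3e or Cd3g, at 50.5 CPM (28.3 to 83.3), and 9 in those with Trdc, at 22.3 CPM (10.2 to 42.4), and these intervals overlap. The barcodes with Trdc also held all 118 lymphoid UMIs of Col27a1, a fibrillar collagen, at 293 CPM, while collagen I and III were at 49.6 CPM.

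In the other myeloid barcodes few members stood apart. Dendritic-like barcodes (209) had 1 of 8 at 2-fold or more, against 5.15% of all genes, which was Plod2 at 4.87 CPM (2.52 to 8.51) from 12 UMIs. Monocyte-like barcodes (244) had none, against 6.04% of all genes, and neither had the 145 myeloid barcodes that the split left unassigned, against 4.95%.

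The smaller classes gave few counts. The 16 pericyte or smooth muscle-like barcodes had 7 of 8 members at 2-fold or more, against 18.1% of all genes, but only Serpinh1 and Pcolce had more than 10 UMIs. Serpinh1 was at 362 CPM (251 to 506) and Pcolce at 277 CPM (181 to 406) there, and Lox, with 6 UMIs, at 63.9 CPM (23.5 to 139). Collagen I and III were at 1215 CPM in these barcodes and fibroblast markers at 256 CPM. Against the UMIs expected with collagen, 6 of 10 members lay above and 4 held the expectation in their interval, with Pcolce at 5.66 times (3.70 to 8.30), Lox at 4.15 times (1.52 to 9.03) and Serpinh1 at 3.04 times (2.10 to 4.25). Neutrophil-like barcodes (25) held 2 member UMIs in all, 1 of P4ha1 and 1 of Plod1, in 61697 UMIs, and 0 of 8 members were 2-fold higher, against 14.2% of all genes. Mast-like barcodes (22) held 15, of which 7 were P4ha1, and 2 of 8 members were higher, against 17.6% of all genes. Skeletal muscle-like barcodes (100) held 25, and 1 of 8 was higher, against 11% of all genes. In these 3 classes a member with no UMI may still have been present at up to 48.6, 56.5 or 5.41 CPM, the levels that 3 counts would give in neutrophil-like, mast-like and skeletal muscle-like barcodes.

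P4ha1 was the 1 member with a UMI in every class. Among those with over 100 barcodes its level was 90.4 CPM (84.5 to 96.7) in macrophage-like, 66.6 CPM (56.8 to 77.6) in dendritic-like, 62.9 CPM (48.4 to 80.3) in lymphoid-like, 59.3 CPM (49.6 to 70.4) in monocyte-like and 56.0 CPM (52.1 to 60.1) in keratinocyte-like barcodes. The intervals of the last 4 overlapped, and macrophage-like barcodes stood above them. In the unassigned myeloid barcodes it was at 91.0 CPM, but 1 barcode held 40 of the 155 UMIs.

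**Figure D2:**
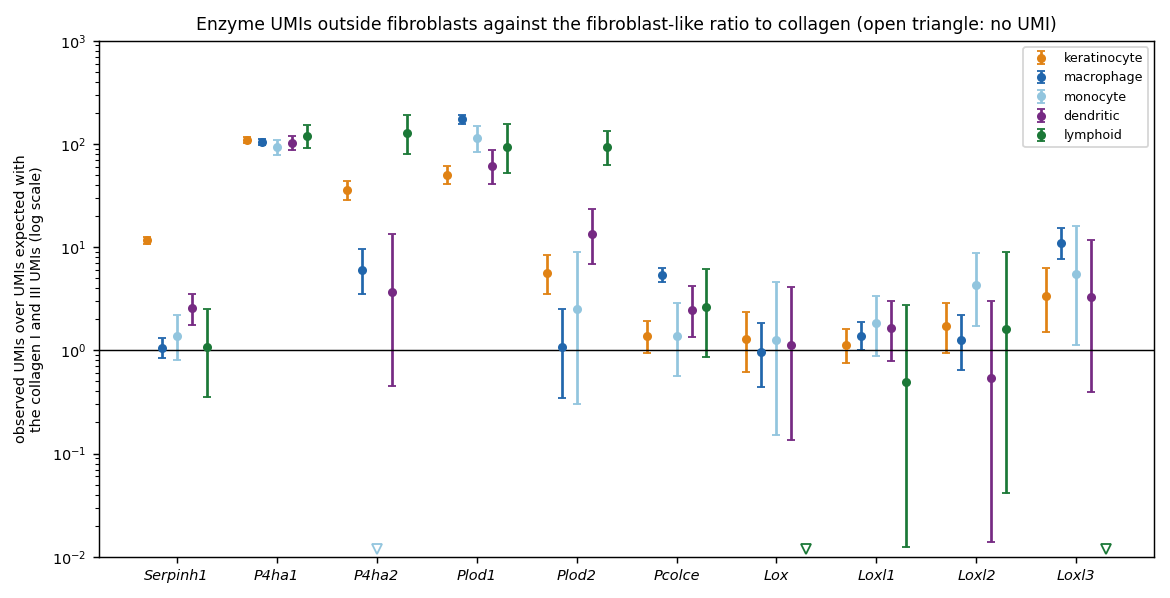
Observed UMIs of each member divided by the UMIs expected to come with collagen I and III (ratio, log scale) in 5 non-fibroblast classes, with bars for the 95% Poisson interval of the observed count and a line at 1. P4ha1 and Plod1 lie far above 1 in all 5 classes, Plod2 and P4ha2 in lymphoid-like, P4ha2 and Serpinh1 in keratinocyte-like, Plod2 in dendritic-like and Loxl3 in macrophage-like barcodes, while Lox holds 1 within its interval in each class that has a Lox UMI.

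Since fibroblasts carried most of the member UMIs, 7 fibroblast subsets were compared with each other. They were gated by the standardised mean of small marker sets and are called by the first marker below. These were Crabp1 (with Dkk2, Corin and Lef1; 44 barcodes), Cilp (with Thbs4 and Myoc; 180), Cyp2f2 (with C1qtnf3; 153), Cxcl13 (with Vegfd and Mmp3; 557), Rasgef1c (with Cd55b and Adamts9; 191), Nova1 (with Nkain2 and Nox4; 284) and Pi16 (with Dpp4 and Sema3c; 486). The other 1559 fibroblast-like barcodes stayed ungated. Collagen I and III were at 32342 CPM in Cyp2f2 barcodes and between 6881 CPM in Crabp1 and 12480 CPM in Cxcl13 barcodes in the other 6 subsets. The subsets also differed in RNA composition that no marker set used. Malat1, a nuclear RNA, was at 20994 CPM in Crabp1, 13421 CPM in Cyp2f2 and 3388 CPM in Cxcl13 barcodes, and median depth lay between 8780 UMIs in Cyp2f2 and 15073.5 in Nova1 barcodes. The part of these differences in the results was not tested.

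Each subset was set against the other 6 together, with 1.5-fold as the threshold. The members gave 23 calls in 70 ratios over the 7 subsets. Of all genes, between 15.7% in Pi16 and 40.9% in Crabp1 barcodes passed it in either direction, so the total alone does not set the members apart. Between its highest and lowest subset, Lox varied more than Loxl1 and Loxl2. Loxl3 spanned 8.28-fold (4.70 to 16.1), with 12 UMIs in its lowest subset and an interval that overlapped that of Lox. Lox was at 303 CPM (278 to 330) in Cilp, 263 CPM (237 to 291) in Cyp2f2, 235 CPM (224 to 246) in Cxcl13, 167 CPM (155 to 179) in Nova1, 109 CPM (96.4 to 122) in Rasgef1c, 73.8 CPM (53.6 to 99.1) in Crabp1 and 59.3 CPM (52.7 to 66.5) in Pi16 barcodes. The neighbouring pairs Cilp and Cyp2f2, Cyp2f2 and Cxcl13, and Crabp1 and Pi16 overlapped in their intervals, and so did Rasgef1c with Crabp1. The highest stood 5.12 times (4.43 to 5.92) above the lowest. Loxl1 ran between 279 CPM (238 to 324) in Crabp1 and 619.7 CPM (598 to 642) in Pi16 barcodes. These were also the subsets with the least Lox, so low Lox went with both the least and the most Loxl1. Loxl2 stayed between 94.0 and 177 CPM.

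Pi16 barcodes had 3 of 10 members 1.5-fold lower than the other subsets, against 11.5% of all genes lower and 15.7% in either direction. Lox was at 0.291-fold (0.258 to 0.328), Pcolce at 0.615-fold and Plod1 at 0.653-fold. Of the other pathway genes 5 of 34 were lower there, among them the N-proteinase Adamts2 at 0.647-fold, and 0 were higher. That count is near the same shares of all genes and does not set the pathway apart. Cilp barcodes had 4 of 10 members 1.5-fold higher, against 11.9% of all genes higher and 24.6% in either direction. Pcolce was at 880.1 CPM in Cilp barcodes and 459.6 CPM in the other subsets, a ratio of 1.91 (1.81 to 2.02). Lox was at 1.87-fold (1.70 to 2.05), Plod1 at 1.82-fold, with 71.9 CPM in Cilp barcodes and 39.4 CPM in the other subsets, and P4ha2 at 1.51-fold (1.24 to 1.83). Of the other pathway genes 4 of 34 were higher in Cilp barcodes, near the 11.9% of all genes, and 1 was lower. Among those higher was Colgalt2, the collagen galactosyltransferase, at 6.82-fold (4.80 to 9.61).

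Cyp2f2 barcodes, those with the most collagen, had 4 of 10 members past 1.5-fold, against 33.1% of all genes. Plod2 was at 9.14 CPM (13 UMIs) in Cyp2f2 barcodes and 75.3 CPM in the other subsets, a ratio of 0.121 (0.0645 to 0.208). Loxl3 was at 8.44 CPM (12 UMIs) in Cyp2f2 barcodes and 57.0 CPM in the other subsets, a ratio of 0.148 (0.0763 to 0.260). P4ha2 was at 94.95 CPM in Cyp2f2 barcodes and 43.5 CPM in the other subsets, a ratio of 2.19 (1.81 to 2.62), and Lox at 1.58-fold (1.42 to 1.76). Serpinh1 was at 1238 CPM in Cyp2f2 barcodes and 1164 CPM in the other subsets, a ratio of 1.06 (1.01 to 1.12), while collagen was much higher. Per 1000 UMIs of collagen I and III, Cyp2f2 barcodes held 38.3 Serpinh1 UMIs, and the other 6 subsets held between 98.3 and 116. Of the other pathway genes 11 of 34 were higher in Cyp2f2 barcodes, against 16.4% of all genes, and 4 were lower. In either direction 15 passed 1.5-fold, against 33.1% of all genes. Among those higher were Sparc (2.31-fold), Adamts2 (2.17-fold), Kdelr3 (2.07-fold) and Creb3l1 (1.89-fold), a transcription factor of the secretory pathway.

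Crabp1 barcodes, the subset with the least collagen and the most Malat1, had 6 of 10 members 1.5-fold lower, against 16.1% of all genes lower and 40.9% in either direction. P4ha2 was lowest among the 7 subsets there at 23.5 CPM, but from 14 UMIs. Rasgef1c barcodes had 4 of 10 past 1.5-fold, against 26.1% of all genes. Plod2 was at 123 CPM (110 to 137) in Rasgef1c barcodes and 64.6 CPM in the other subsets, while Pcolce, Lox and Loxl3 were lower there. Cxcl13 barcodes had 2 of 10 members higher, Lox at 1.64-fold and Loxl3 right at the threshold (1.34 to 1.68), against 3.15% of all genes higher and 26.8% in either direction. Nova1 barcodes had no member past 1.5-fold, against 15.9% of all genes, and Plod2 came nearest at 1.45-fold (1.29 to 1.62). P4ha1 passed 1.5-fold in no subset, with 97.3 to 164 CPM, and neither did Serpinh1, with 794 to 1311 CPM.

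**Figure D3:**
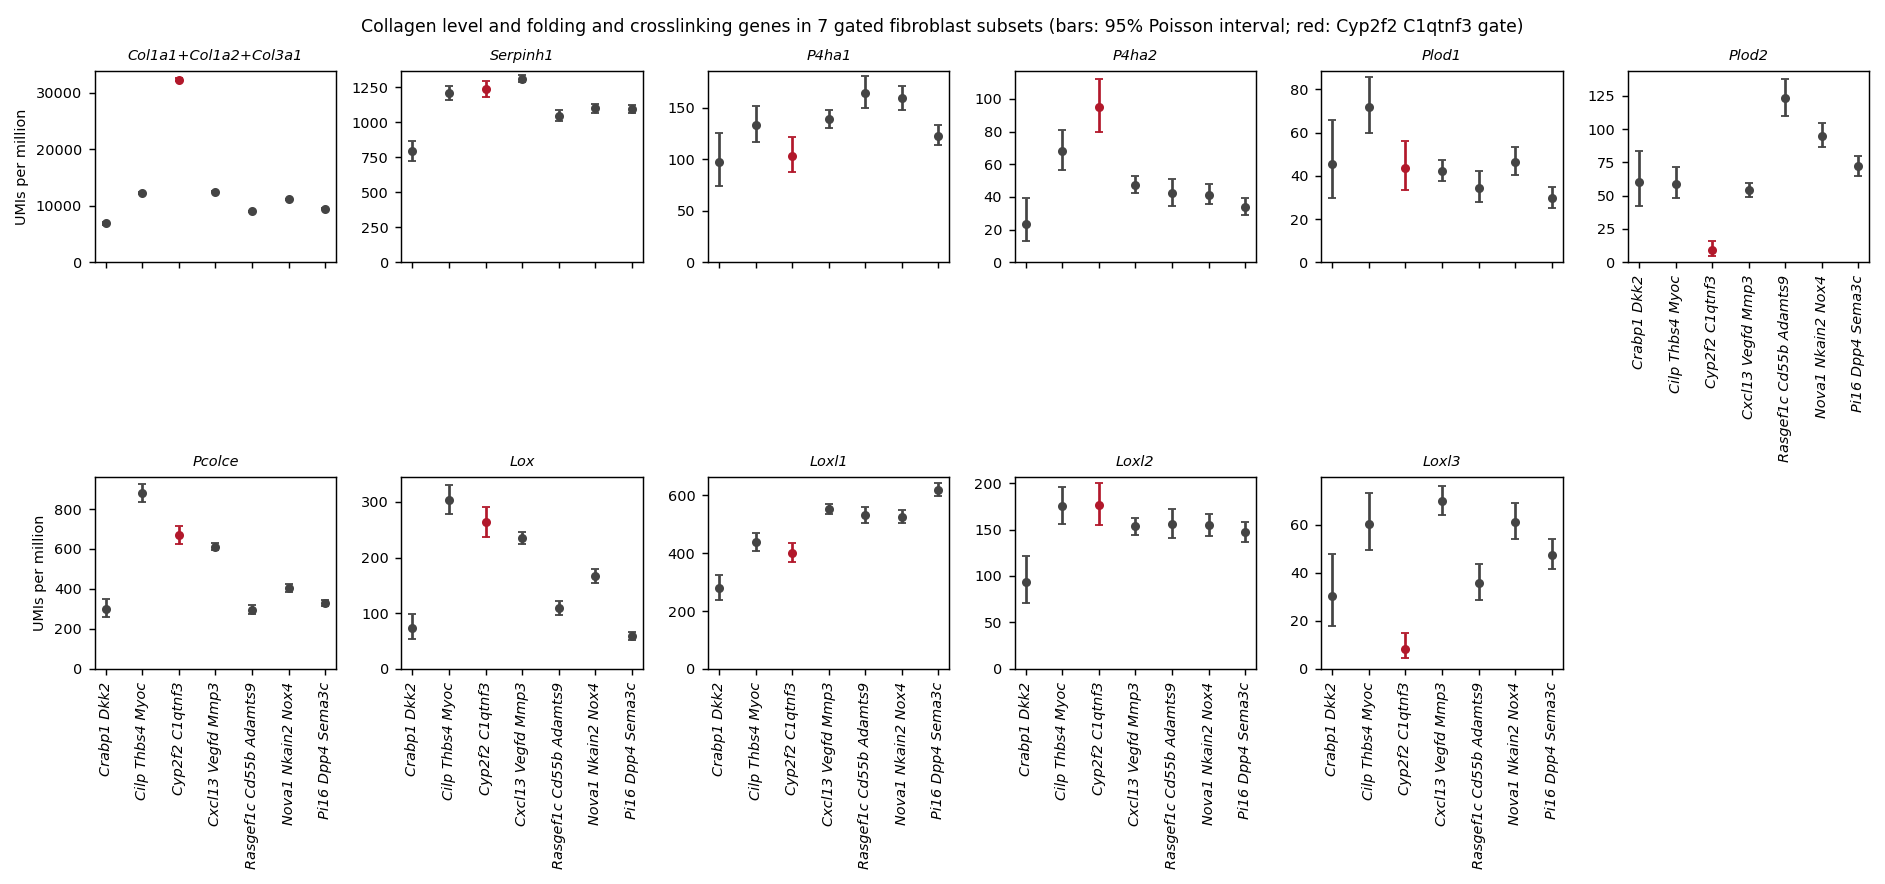
Collagen I and III and each member (CPM, linear scale from 0) in the 7 gated fibroblast subsets, with 95% Poisson intervals and Cyp2f2 barcodes in red. Cyp2f2 barcodes stand alone at the top for collagen, at the bottom for Plod2 and Loxl3, and among the other subsets for Serpinh1.

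The share of 1 enzyme among related ones is not changed by UMIs of unrelated genes, so shares were compared as well. Outside fibroblasts, UMIs that come along with collagen can still enter them. In macrophage-like barcodes the 5 Plod2 UMIs stood against 4.66 expected in that way. The share of Lox among the UMIs of Lox, Loxl1, Loxl2 and Loxl3 was 31.0% (28.8 to 33.3) in Cilp, 30.9% (28.3 to 33.6) in Cyp2f2 and 23.2% (22.3 to 24.2) in Cxcl13 barcodes. It was 6.78% (6.05 to 7.57) in Pi16 barcodes, and at most 18.3% in the other 3 subsets. The share of Plod2 among the UMIs of Plod1 and Plod2 was 17.3% (9.57 to 27.8) in Cyp2f2 barcodes, 44.9% (38.3 to 51.7) in Cilp barcodes and 78.1% (73.8 to 82.0) in Rasgef1c barcodes. In all fibroblast-like barcodes it was 65.3%, against 1.15% (0.376 to 2.67) in macrophage-like and 17.3% (11.2 to 25.0) in keratinocyte-like barcodes. The share of P4ha2 among the UMIs of P4ha1 and P4ha2 was 47.9% (41.9 to 53.9) in Cyp2f2 and 33.7% (28.8 to 38.9) in Cilp barcodes, and between 19.4% and 25.4% in the other 5 subsets. In lymphoid-like barcodes with Trdc it was 40.4% (27.0 to 54.9), against 1.94% (1.13 to 3.09) in macrophage-like barcodes. These shares compare groups for 1 pair of genes and are not shares of protein.

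**Figure D4:**
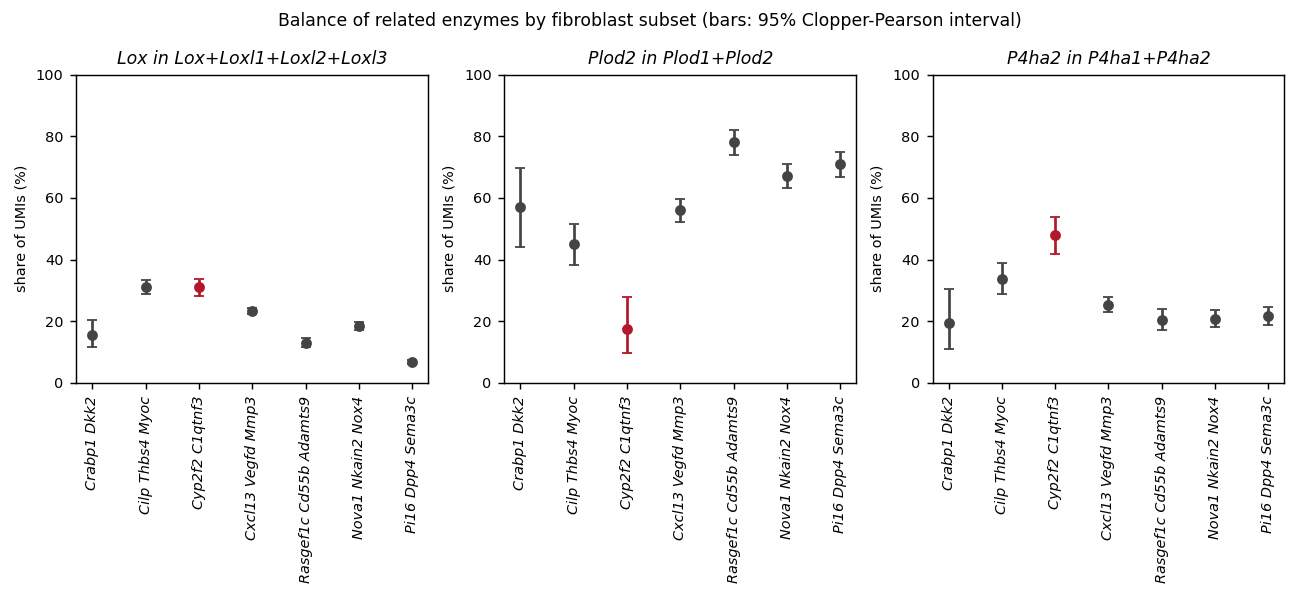
Share of UMIs (%, axis from 0 to 100) that fell on Lox among the lysyl oxidases, on Plod2 among the lysyl hydroxylases Plod1 and Plod2, and on P4ha2 among the prolyl hydroxylase subunits P4ha1 and P4ha2, in the 7 fibroblast subsets. Bars are 95% Clopper-Pearson intervals, and Cyp2f2 barcodes, in red, have the lowest Plod2 share at 17.3% and the highest P4ha2 share at 47.9%.

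Levels over the 7 subsets were correlated for a few picked pairs of members, given here as a description of 7 points from 1 library. The remaining pairs of the 10 members are not given, so these values do not describe the members as a set. The log2 levels of Lox and Pcolce had a Pearson correlation of 0.91, those of Lox and Plod1 of 0.70, those of Plod2 and Loxl3 of 0.81, and those of Lox and Loxl1 of 0.02. Over the 7 subsets and the 10 other classes, the genes whose levels were most like a member's were searched among 10526 genes with at least 500 UMIs, on log2(CPM + 1), and the contrast between fibroblasts and the rest weighs on all of these values. They were Prelp and Fam124a for Lox, Mxra8 and Ptx3 for Loxl1, Lbp and Dpep1 for Loxl2, and Scn7a and Ebf2 for Loxl3. Ddr2, a collagen receptor, and Serping1 were nearest to Serpinh1, and Col6a2, a collagen VI chain, and Adam33 to Pcolce. Spsb1 and Fads2 were nearest to Plod2, Serinc1 and 9530068E07Rik to Plod1, Tshz3 and Farp1 to P4ha2, and Pofut1 and Klf4 to P4ha1. Pearson correlations of these pairs lay between 0.93 for Farp1 with P4ha2 and 0.99 for Lbp with Loxl2.

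The last comparison asked whether the enzymes follow the collagen level of a fibroblast. Fibroblast-like barcodes were cut into 5 parts by the share of their UMIs from Col1a1, Col1a2 and Col3a1, with medians of 0.470% in the lowest and 2.10% in the highest part, and member levels were taken over the UMIs outside those 3 genes. In the highest part against the lowest, 7 of 10 members were 1.5-fold higher and 0 were lower, against 6.29% of 10977 genes that were higher and 14.6% that differed in either direction. With the barcodes split into 2 parts in place of 5, Plod1 alone passed 1.5-fold, at 1.51-fold, and the other 6 were between 1.28-fold and 1.48-fold. Plod1 had 58.9 CPM in the highest and 27.7 CPM in the lowest part, a ratio of 2.13 (1.81 to 2.52). Serpinh1 had 1597 CPM in the highest and 814 CPM in the lowest part, a ratio of 1.96 (1.90 to 2.02). Loxl2 was at 1.93-fold (1.78 to 2.09), P4ha2 at 1.92-fold (1.66 to 2.22), Pcolce at 1.74-fold (1.66 to 1.82), Lox at 1.73-fold (1.60 to 1.87) and Loxl1 at 1.61-fold (1.53 to 1.68).

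The other 3 members did not pass 1.5-fold. Loxl3 was at 1.30-fold (1.13 to 1.496), P4ha1 at 1.08-fold (0.990 to 1.18) and Plod2 at 0.852-fold (0.753 to 0.963). From the lowest to the highest part Serpinh1, Plod1, Loxl2, P4ha2 and Pcolce stepped up at every part. Counted from the lowest, neighbouring intervals overlapped for P4ha2 in parts 1 to 4, for Plod1 in parts 2 to 4 and for Loxl2 in parts 1 and 2. Lox was at 126, 142, 136, 159 and 217 CPM from the lowest to the highest part, most of its increase lying in the last. P4ha2 was at 36.8, 40.3, 42.8, 47.1 and 70.5 CPM, also with most of its increase in the last part. Plod2 was at 73.5, 87.3, 84.3, 83.1 and 62.6 CPM over the same 5 parts. The mix of subsets differed between the parts. Cyp2f2 barcodes made up 14.3% of the highest and 2.46% of the lowest part, Cxcl13 barcodes 18.4% of the highest and 8.39% of the lowest, and Pi16 barcodes 6.23% of the highest and 16.9% of the lowest. Rasgef1c barcodes made up 1.74% of the highest and 7.67% of the lowest part, and Crabp1 barcodes 0.580% of the highest and 4.20% of the lowest. The part of these 4 other subsets in the result was not tested. Without Cyp2f2 barcodes, an alternative chosen after the values were seen, Plod2 was at 0.962-fold (0.852 to 1.09), P4ha2 at 1.68-fold and Lox at 1.63-fold, and 7 members were again 1.5-fold higher, against 5.77% of all genes higher and 15.7% in either direction.

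In the same comparison 14 of 35 other pathway genes were higher, 2 were lower and 19 stayed within 1.5-fold. Of all genes 6.29% were higher and 14.6% differed in either direction. Among those higher were Sparc (4.12-fold), Kdelr3 (2.68-fold), Fkbp10 (2.37-fold) and Adamts2 (1.89-fold). Lower were the proteinase Tll1 at 0.421-fold and the ascorbate transporter Slc23a2 at 0.637-fold. Malat1 differed between the parts as well and was at 6685 CPM in the highest and 10008 CPM in the lowest part. The ribosomal protein share was 18.7%, 19.6%, 19.7%, 19.6% and 18.4% from the lowest to the highest part. The part of Malat1 in the result was not tested.

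**Figure D5:**
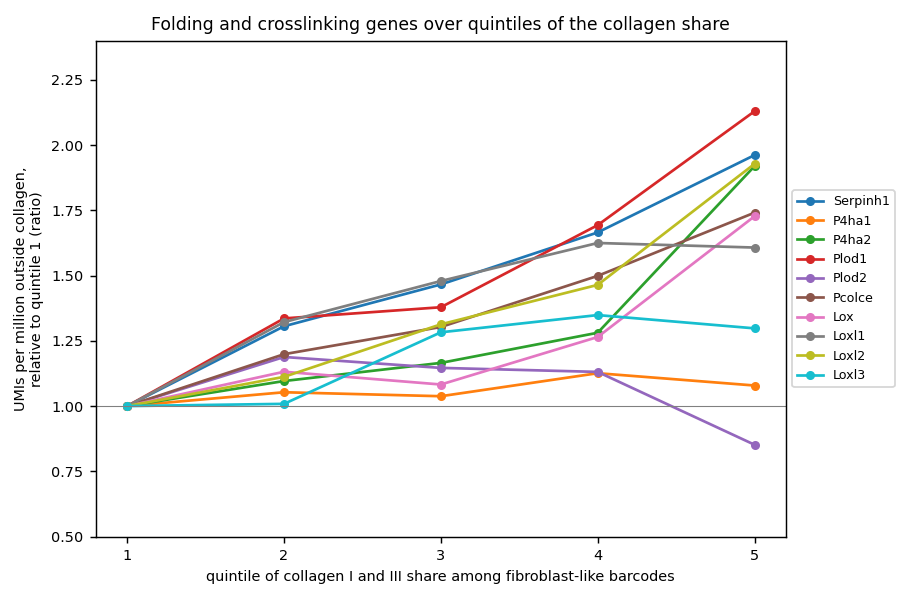
Level of each member over the UMIs outside collagen I and III, relative to the lowest part (ratio, linear axis from 0.5), in 5 near-equal parts of fibroblast-like barcodes ordered by collagen share. Plod1 and Serpinh1 reach 2.13 and 1.96 in the highest part, P4ha1 stays at 1.08, and Plod2 ends below 1.

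P4ha1, P4ha2, Plod2 and Lox are known as genes that hypoxia induces, so a list of 15 other hypoxia-induced genes was set beside them. In fibroblast-like over other gated barcodes 2 of the 15 were 2-fold higher, Adm at 15.5-fold and Vegfa at 4.37-fold, and 10 were lower, with a median log2 ratio of -1.42, against 19.6% of all genes higher and 24.8% lower. The largest ratios of the list in other classes were those of the glucose transporter Slc2a3 in neutrophil-like barcodes (111-fold over the other non-fibroblast classes) and of the glycolytic Aldoa in skeletal muscle-like barcodes (59.1-fold). In lymphoid-like barcodes, where Plod2 and P4ha2 were high, 3 of 15 were higher, near the 14.9% of all genes, and 4 were lower. The 3 were Slc2a3 at 8.00-fold, Egln3 at 3.51-fold and Hk2 at 2.12-fold. In barcodes with Trdc, which held 21 P4ha2 UMIs, they were at 34.7, 44.6 and 174 CPM in that order. In those without Trdc, Cd3e or Cd3g, which held 15 Plod2 UMIs, they were at 94.2, 6.73 and 20.2 CPM. In those with Cd3e or Cd3g and no Trdc they were at 94.5, 40.9 and 94.5 CPM.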

How the data were processed

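Values are UMI counts as deposited, raw and whole, 1 column a barcode. Cell Ranger and build mm10 are named in the submitters' processing notes, while the version, cell calling and annotation are not given in the sources used here. The hashtag library was not used here. Members and gene lists were chosen with earlier results of these data known, and no gene list is independent support.

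Barcodes under 200 genes (87) or above 20% mitochondrial UMIs (237) were removed. Barcodes were gated by marker lists (3 markers with 2 or more UMIs), and those passing 2 or more gates (406) were left out as possible doublets. Scrublet in Scanpy 1.11.5, at an expected rate of 6%, called 305 barcodes (3.75%), 218 of them among those 406, and its calls were left out only as an alternative. Macrophage, monocyte and dendritic barcodes shared 1 gate and were split by the largest share of markers found. Fibroblast and keratinocyte subsets needed a mean standardised marker level of 0.5, 0.25 above the next, and a UMI of 2 markers. The lists were the 10 members, 38 other collagen biosynthesis genes and 15 hypoxia-induced genes.

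UMIs were summed per group and given as CPM, with exact intervals at 95% (SciPy 1.17.1, NumPy 2.4.6, Python 3.11.15). Genes needed 50 UMIs over both sides to be counted, a side at 0 was read as 3 counts, and thresholds were 2-fold between classes and 1.5-fold within fibroblasts. With 1 library no p-value was computed. Class sums had 53105 UMIs (mast-like) to 41090425 UMIs (fibroblast-like), so intervals are narrow in fibroblast-like and wide in mast-like barcodes. The computation of ratios and intervals was run on simulated Poisson counts with known folds. Such counts follow the model behind the intervals, so this checks the computation and not any added spread between barcodes. Genes were named by a rule: all members, the 3 highest ratios of each sub-list with 50 or more UMIs and any below 0.5-fold, the 2 genes nearest to each member, and the 3 highest hypoxia ratios. P4hb and the other pathway genes named in the subset and collagen comparisons were picked after their values were seen. Gene positions are from GENCODE M21 for GRCm38, the mm10 assembly. Alternatives were the filters on genes and mitochondrial UMIs, Scrublet calls, no filter on low counts, equal weight per barcode, 1 more marker per gate, UMIs outside collagen and members as the denominator, subtraction of UMIs expected with collagen, Leiden clusters (leidenalg 0.10.2) as classes, 2 parts in place of 5, and, added after seeing the data, leaving out Cyp2f2 barcodes. Figures were drawn with matplotlib 3.10.9.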

Additional observations from a re-analysis of the deposited data

How the results depend on the processing

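No paired analysis was possible because both GEO samples are parts of 1 pool and only 1 RNA library was analysed. The 9 members higher in fibroblast-like barcodes became 8 with equal weight per barcode or with Leiden clusters and 10 with UMIs outside collagen and members as the denominator, Plod1 and P4ha1 being the members near 2-fold. The count of other pathway genes stayed at 26 or 27. The 23 calls over fibroblast subsets became 15 with 1 more marker per gate, under which the Cyp2f2 gate, having 2 markers, could give no subset, and 19 without Cyp2f2 barcodes. The 7 members higher with the collagen share became 1 when barcodes were split into 2 parts in place of 5, a split that brings the compared collagen shares closer. Of 90 ratios of fibroblast-like barcodes, 540 of subsets and 90 of collagen parts under alternatives, 87, 525 and 84 kept their call. A turn of direction was counted only for ratios past their threshold in the main analysis, and of these 0 turned. Dropping the filter on low counts could change no ratio, and the alternative denominator was not applied to the collagen parts. Depth limits the classes under 100 barcodes, where 1 to 3 UMIs set a level, and Plod2 and Loxl3 in Cyp2f2 barcodes rest on 13 and 12 UMIs.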

Other observations

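The 1106 barcodes that passed no gate held 40.0 CPM of Plod2 (34.3 to 46.4), 174 CPM of Serpinh1 and 8.79 CPM of Lox, beside 791 CPM of collagen I and III and 29361 CPM of Malat1, at a median of 3498 UMIs. Their leading collagen was Col23a1 at 407 CPM. The 406 barcodes that passed several gates held 61.1 CPM of Lox, 529 CPM of Serpinh1 and 5220.0 CPM of collagen I and III.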
